A study of Mus musculus with 11 samples.

Results

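Apoe, Trem2, Cst7, Lpl, Itgax, Spp1, Gpnmb, Axl, Cd9 and Clec7a are genes that mark disease-associated microglia, and were followed here as a set of 10 among the 25827 genes counted in every matrix. They were picked by symbol, and all 10 were present. Single-nucleus RNA-seq had been run on pooled cerebellum, brainstem and upper cervical spinal cord of male mice aged 8 to 12 weeks, with 1 library per immunized animal. 4 Il12rb2fl/fl mice (fl EAE) and 4 NestinCre/+Il12rb2fl/fl mice (NestinCre EAE) were taken 10 days after immunization with a myelin oligodendrocyte glycoprotein peptide in complete Freund's adjuvant with pertussis toxin, which causes experimental autoimmune encephalomyelitis (EAE), a model of neuroinflammation. 2 libraries from Il12rb2fl/fl mice (fl naive) and 1 from a NestinCre/+Il12rb2fl/fl mouse (NestinCre naive, no replicate) were made without immunization. The study calls the fl naive library sequenced with EAE mice an internal control for reproducibility and batch effects. It does not say whether the fl naive libraries came from different animals. Both genotypes carried loxP-flanked Il12rb2, the gene of the signalling subunit of the interleukin-12 receptor, and only the NestinCre mice carried Cre under Nestin control, which acts in the precursors of neurons, astrocytes and oligodendrocytes and spares microglia, which arise from the yolk sac. The genotype comparison therefore asks how microglia and other cells differ at disease onset when Il12rb2 is targeted in neuroectodermal cells. No library came from a NestinCre mouse without loxP-flanked Il12rb2, so carrying Cre and losing Il12rb2 cannot be told apart here.

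Microglia at rest keep a surveying programme marked by genes such as P2ry12 and Tmem119. Around dying cells, amyloid or damaged myelin they take up lipid and debris, and a second programme comes up. Its later part depends on TREM2, a receptor for lipids and apolipoproteins that signals through the adaptor TYROBP and the kinase SYK. Apoe encodes the lipid carrier apolipoprotein E and Lpl the lipase that frees fatty acids from lipoproteins. Axl encodes a receptor tyrosine kinase that binds apoptotic cells through GAS6, Clec7a the beta-glucan receptor dectin-1, and Itgax the integrin subunit CD11c. Spp1 encodes the secreted ligand osteopontin and Cst7 cystatin F, an inhibitor of cysteine cathepsins. Gpnmb encodes a lysosomal and surface glycoprotein of lipid-laden phagocytes and Cd9 a tetraspanin that is also abundant in the oligodendrocyte lineage. Most of these genes are shared with macrophages that enter the tissue from the blood.

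The 11 libraries held 189709 barcodes and between 40761007 and 86063464 unique molecular identifiers (UMIs, 1 per captured RNA molecule) each, and 159846 nuclei were kept. Any pair of libraries shared 47 to 140 barcodes, at most 0.692% of the smaller library. EAE replicates 1 to 3 of both genotypes were in sequencing run 1, both EAE replicates 4 and fl naive 2 were in run 2, and fl naive 3 and NestinCre naive 2 were in run 3. As a check of the labels, Nes in neurons stood at 0 to 0.051 counts per 1000000 UMIs (CPM) in the fl libraries and 0.821 to 1.17 in the NestinCre libraries. Il12rb2 in neurons was 12.4 to 18.4 CPM in fl EAE and 9.06 to 18.3 in NestinCre EAE, and counts over the whole gene do not show whether a loxP-flanked exon is lost.

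Nuclei were clustered without the 10 genes and named from other markers. Microglia numbered 126, 105, 221 and 118 in fl EAE replicates 1 to 4 and 200, 174, 238 and 460 in NestinCre EAE replicates 1 to 4. Infiltrating phagocytes, cells led by markers such as Ccr2, Ly6c2 and Chil3, numbered 5, 2, 16 and 15 in fl EAE and 138, 88, 103 and 21 in NestinCre EAE. Levels below are CPM, the UMIs of a gene per 1000000 UMIs of a class in a library. CPM is not divided by gene length, so levels are compared between samples and classes and not between genes. In sums over a class or tissue, fewer cells of a type and less RNA per cell cannot be told apart. P-values measure the spread between libraries, and intervals cover counting error only.

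Stretches before the start sites of Axl and Clec7a, which differed between the genotypes in microglia, and of Spp1, the member with motif matches, are printed from RefSeq (GRCm38.p6), 250 bases up to the base before the start, 5′ to 3′ on the gene's strand. The Axl stretch is chr7:25788734-25788983 on the minus strand, the Clec7a stretch chr6:129472780-129473029 on the minus strand, and the Spp1 stretch chr5:104434861-104435110 on the plus strand. Capitals mark motif matches.
Axl: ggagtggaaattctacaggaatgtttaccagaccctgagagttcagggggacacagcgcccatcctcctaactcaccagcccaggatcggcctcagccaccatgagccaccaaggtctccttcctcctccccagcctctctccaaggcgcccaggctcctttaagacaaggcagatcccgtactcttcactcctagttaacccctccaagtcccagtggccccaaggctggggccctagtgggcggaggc
Clec7a: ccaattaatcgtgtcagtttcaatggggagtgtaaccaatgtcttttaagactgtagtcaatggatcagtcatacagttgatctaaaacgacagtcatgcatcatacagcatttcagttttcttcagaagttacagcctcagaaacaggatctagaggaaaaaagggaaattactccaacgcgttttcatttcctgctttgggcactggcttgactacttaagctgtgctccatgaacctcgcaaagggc
Spp1: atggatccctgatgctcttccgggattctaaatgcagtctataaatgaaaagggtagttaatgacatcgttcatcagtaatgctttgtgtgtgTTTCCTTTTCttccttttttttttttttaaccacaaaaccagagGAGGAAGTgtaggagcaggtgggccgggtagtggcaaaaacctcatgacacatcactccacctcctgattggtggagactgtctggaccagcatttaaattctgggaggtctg

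5 motifs were searched on both strands: GAGGAAGT (PU.1), TCACGTG and TCATGTG (E-box and M-box), the interferon-stimulated response element of 10 letters and TTCNNNGAA (interferon-gamma activated site), the last pair added after the first 3 had given a single match. Promoters were on hand for 9 of the 10 genes, Lpl being the other, as 13 entries. Only Spp1 held a match, GAGGAAGT starting 113 bases and the interferon-stimulated response element starting 157 bases before the start site, the latter on the opposite strand, and the matches do not overlap. Of 32851 mouse promoters of this length, 2.44% held GAGGAAGT, 2.98% held the interferon-stimulated response element, 7.02% held TTCNNNGAA, 3.13% held TCACGTG and 3.25% held TCATGTG. A match is a run of letters and not a shown binding site.

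In microglia, Apoe and Axl were higher in NestinCre EAE than in fl EAE. Clec7a, Cst7 and Gpnmb, which were near 0 in fl EAE, were higher in all 4 NestinCre EAE libraries than in any fl EAE library. For Cst7 and Gpnmb a count of 0 in fl EAE 2 allowed up to 20.4 CPM (exact Poisson bound). All but the highest of their NestinCre EAE values lay below that, so their order of single libraries carries little information. Trem2, Cd9, Lpl and Spp1 did not separate the genotypes, and Itgax was between these groups. After the filter on low counts 4 of the 10 genes were tested and 2 were called at an adjusted p under 0.05 (edgeR quasi-likelihood test on UMIs summed per library, run in the model), beside 6.36% of 7157 genes called with 4.64% higher and 1.72% lower.

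**Figure D1:**
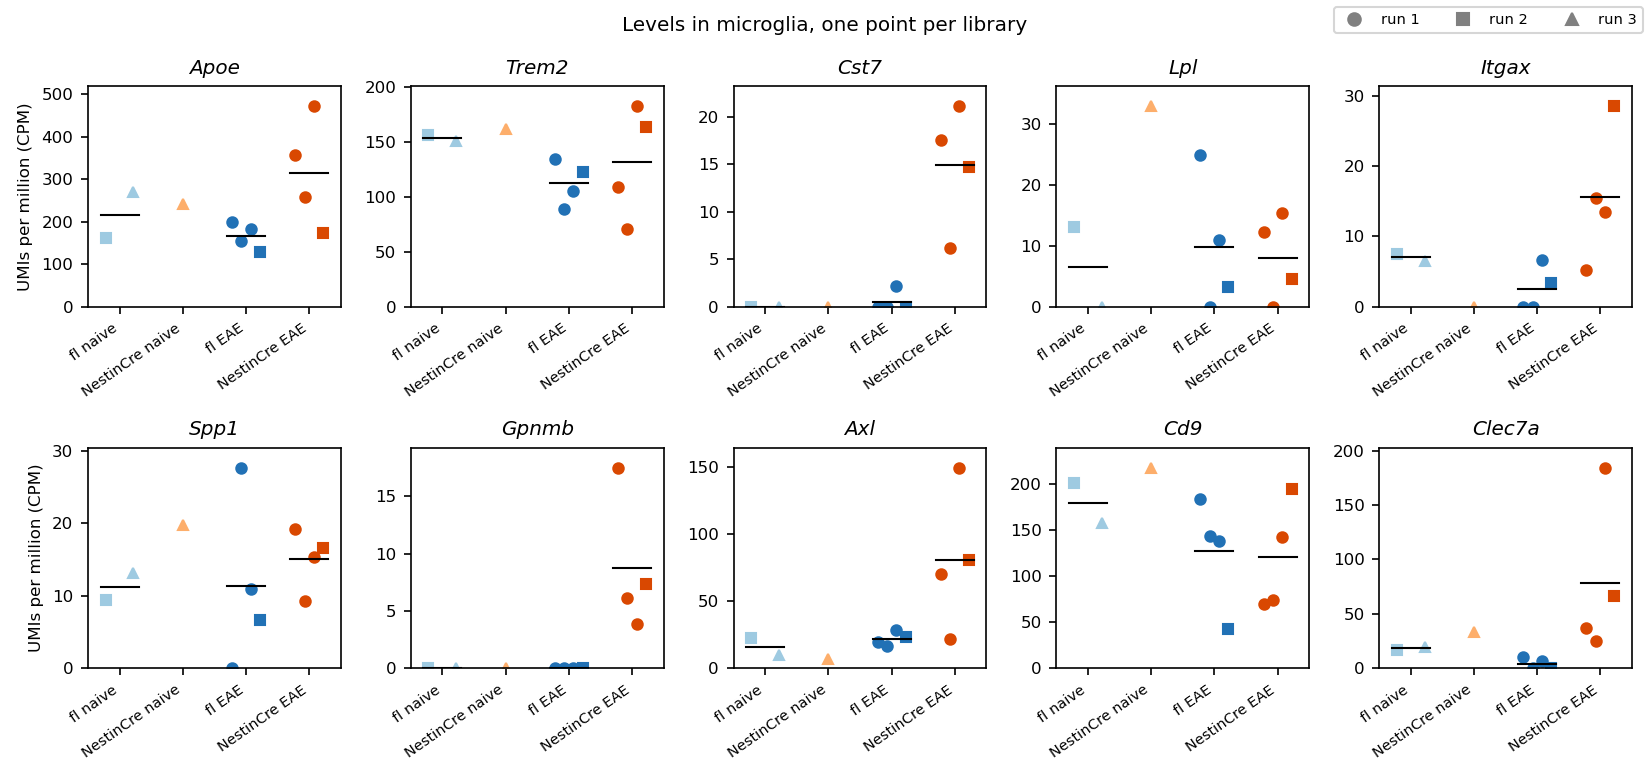
Level of each gene in microglia (CPM, y axes differ) with 1 point per library, grouped by genotype and immunization; marker shape gives the sequencing run and the black line the group mean. Clec7a, Cst7 and Gpnmb are higher in every NestinCre EAE library than in any fl EAE library, while Trem2, Lpl, Spp1 and Cd9 overlap. For Cst7 and Gpnmb the count of 0 in fl EAE 2 allows up to 20.4 CPM.

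Among the lipid genes, Apoe (GRCm39 chromosome 7, 19430034 to 19434947, minus strand) in microglia was 199, 155, 184 and 129 CPM in fl EAE replicates 1 to 4 and 357, 259, 472 and 175 CPM in NestinCre EAE replicates 1 to 4. NestinCre EAE 3 was the highest, and NestinCre EAE 4 lay inside the fl EAE range, though above the fl EAE library of its own run. The level of Apoe rose by 0.91 ± 0.199 on the log2 scale (SE, n = 4 and 4; edgeR adjusted p = 0.00692), from a mean of 167 ± 31.2 to 316 ± 128 CPM (SD). It passed in every fit that left out 1 library, with adjusted p between 0.00211 and 0.0422, and within run 1 the difference was 1.07 (edgeR adjusted p = 0.00503). In the naive libraries Apoe was 162 and 269 CPM in fl and 241 CPM in NestinCre, so the fl EAE libraries reached levels within or below those of naive mice.

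Lpl (chromosome 8, 69284603 to 69360100, plus strand) was sparse. It stood at 24.9, 0, 11.0 and 3.30 CPM in fl EAE and 12.3, 0, 15.4 and 4.60 CPM in NestinCre EAE, from 11 and 20 UMIs in all. The groups overlapped throughout. The ratio of the pooled levels, NestinCre EAE over fl EAE, was 0.83 with a counting interval of 0.379 to 1.92, and 1.25 without fl EAE 1, so a moderate difference in either direction was not detectable at this depth.

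Of the receptors, Trem2 (chromosome 17, 48653429 to 48661175, plus strand) was well counted and did not separate the genotypes. It was 134, 88.6, 105 and 122 CPM in fl EAE and 109, 71.0, 182 and 164 CPM in NestinCre EAE. NestinCre EAE 2 was the lowest of the 8 libraries and NestinCre EAE 3 the highest, and the fitted difference was 0.27 ± 0.243 on the log2 scale (edgeR adjusted p = 0.645).

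Axl (chromosome 7, 25456535 to 25488329, minus strand) was 19.9, 16.6, 28.5 and 23.1 CPM in fl EAE and 70.1, 21.6, 150 and 80.9 CPM in NestinCre EAE. 3 NestinCre EAE libraries lay above all fl EAE libraries, and NestinCre EAE 2 lay within them. The level of Axl rose by 1.85 ± 0.439 on the log2 scale (edgeR adjusted p = 0.0125), a 3.60-fold difference. The filter's limit of 25.6 CPM was reached by 1 fl EAE and 3 NestinCre EAE libraries. With DESeq2 the adjusted p was 0.0697, and DESeq2 did not call Axl without the filter either. Axl no longer passed the filter when NestinCre EAE 1, 3 or 4 was left out. Without the filter edgeR called it in each of those fits (edgeR adjusted p between 5.05e-07 and 0.00725). These values lay below that of the filtered fit on all libraries, and the cause was not tested. At the common depth of 1000 UMIs per nucleus, reached by 520 of 570 fl EAE and 1005 of 1072 NestinCre EAE microglia, an Axl UMI was found in 1.03% to 2.75% of fl EAE and 1.37% to 13.2% of NestinCre EAE microglia, against 2.86% to 4.52% and 2.87% to 22.3% without thinning. Granule cells, neurons taken as the comparison class for background, gave 0.0178% to 0.0914% and 0.0907% to 0.24% at the same depth; median depths before thinning were 1877 and 2083 UMIs in microglia and 2223 and 2001 in granule cells.

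Clec7a (chromosome 6, 129438554 to 129449742, minus strand) was 9.95, 0, 6.57 and 0 CPM in fl EAE and 36.8, 24.7, 184 and 66.2 CPM in NestinCre EAE. The groups did not overlap. In total 5 UMIs in fl EAE stood against 197 in NestinCre EAE, a ratio of pooled levels of 18.0 with a counting interval of 7.57 to 55.9, and of 11.6 without NestinCre EAE 3, which held 96 UMIs. NestinCre EAE 3 was far above the others, and the naive libraries, at 17.0 and 19.7 CPM in fl and 33.0 CPM in NestinCre, lay above all fl EAE libraries.

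Itgax (chromosome 7, 127728668 to 127749829, plus strand) was 0, 0, 6.57 and 3.30 CPM in fl EAE and 5.26, 15.4, 13.4 and 28.5 CPM in NestinCre EAE. NestinCre EAE 1 lay below fl EAE 3, so the groups overlapped. The pooled ratio was 5.24 with a counting interval of 1.91 to 20.1, from 4 and 46 UMIs. It was 3.02 without NestinCre EAE 4, which held 31 of the 46 UMIs, and 12.6 without fl EAE 3, which held 3 of the 4.

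Of the secreted proteins, Cst7 (chromosome 2, 150412284 to 150420864, plus strand) was found as a single UMI in fl EAE microglia, in replicate 3, at 2.19 CPM. NestinCre EAE held it at 17.5, 6.18, 21.1 and 14.7 CPM, 39 UMIs in all, and the groups did not overlap. The pooled ratio was 17.8 with a counting interval of 3.01 to 720. No Cst7 UMI was found in naive microglia, where the exact Poisson upper bound was 4.41 CPM in fl and 12.2 CPM in NestinCre.

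Spp1 (chromosome 5, 104582165 to 104589235, plus strand) was 0, 27.7, 11.0 and 6.61 CPM in fl EAE and 19.3, 9.26, 15.4 and 16.6 CPM in NestinCre EAE. Its highest library was fl EAE 2, and the groups overlapped. The pooled ratio was 1.52 with a counting interval of 0.782 to 3.18, from 12 and 40 UMIs.

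Of the other membrane proteins, Gpnmb (chromosome 6, 49013426 to 49047863, plus strand) had no UMI in fl EAE or naive microglia and stood at 17.5, 6.18, 3.84 and 7.36 CPM in NestinCre EAE, from 22 UMIs. Against a floor of 3 UMIs over the fl EAE group, the pooled level was 3.34-fold higher in NestinCre EAE. This fold leaves out the counting error of the 22 UMIs, so it is not a lower confidence limit. The depth behind this floor rested most on fl EAE 3, with 456723 UMIs, so the fold would be lower without it.

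Cd9 (chromosome 6, 125437210 to 125471778, minus strand) was 184, 144, 138 and 42.9 CPM in fl EAE and 70.1, 74.1, 142 and 195 CPM in NestinCre EAE. The direction of the difference turned with the sequencing run, since fl EAE 4 was the lowest and NestinCre EAE 4 the highest library, and both were in run 2. Over both runs the log2 difference was 0.02 ± 0.346 (edgeR adjusted p = 0.99), and within run 1 it was -0.62 (edgeR adjusted p = 0.214).

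3 of the 10 genes had levels that did not overlap between the EAE groups, all higher in NestinCre EAE. Of 17625 genes with at least 1 UMI in these microglia, 6.76% did not overlap and 4.07% were higher in NestinCre EAE. Without the filter on low counts, all 10 genes could be fitted and 5 were called, beside 3.93% of 17625 genes, with 3.05% higher. These were Apoe, Axl, Clec7a, Cst7 and Gpnmb. With DESeq2 on the same unfiltered counts, Clec7a (log2 difference 4.41, adjusted p = 0.00782) and Cst7 (3.79, adjusted p = 0.0353) were called with Apoe. For this DESeq2 fit the share of all genes called is not given. The Cst7 difference rested on 1 UMI in fl EAE. Axl missed the threshold (DESeq2 adjusted p = 0.0941), and Gpnmb received no adjusted p. The Gpnmb call (edgeR adjusted p = 0.0122) was lost without fl EAE 3 (adjusted p = 0.0939) or NestinCre EAE 1 (adjusted p = 0.261), whereas Itgax (edgeR adjusted p = 0.0645) was called without either (adjusted p = 0.0153 and 0.0331).

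**Figure D2:**
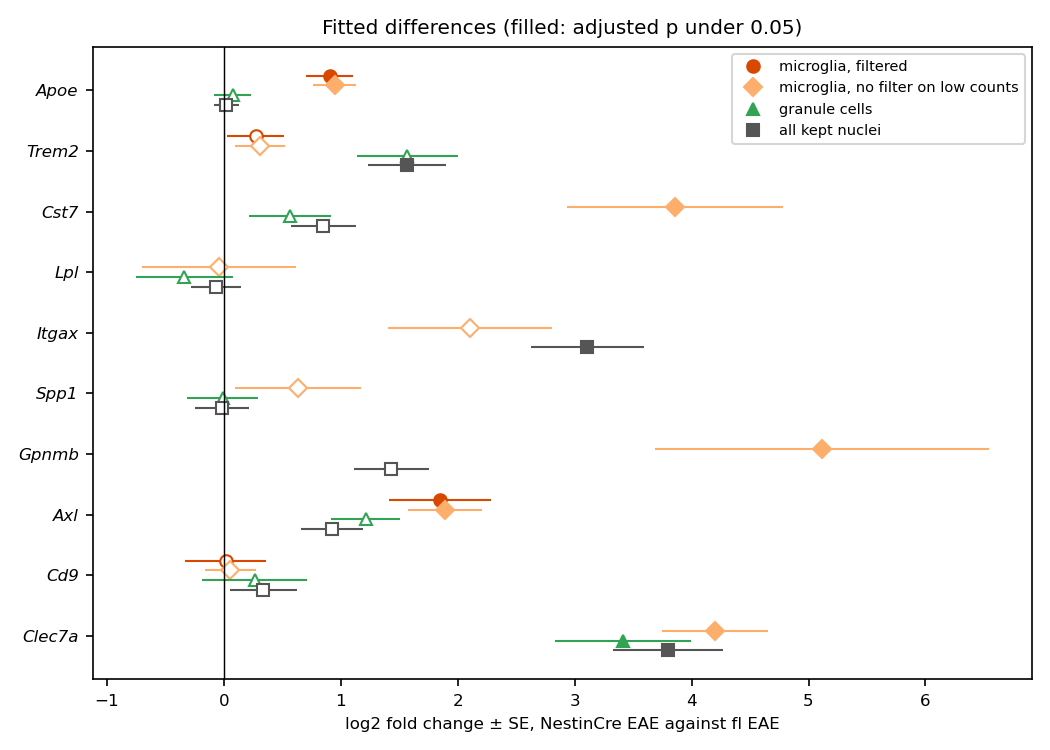
Log2 difference of each gene between NestinCre EAE and fl EAE (x axis; bars are standard errors) in microglia with and without the filter on low counts, in granule cells and in all kept nuclei; filled symbols have an adjusted p under 0.05. In filtered microglia Apoe and Axl are filled, at 0.91 and 1.85, and genes with no point of a kind did not pass the filter there. Without the filter, Cst7 and Gpnmb rest on 1 and 0 UMIs in fl EAE microglia.

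The named microglia were not the same mixture of clusters in both genotypes. Summed markers of microglia were 5700 to 6900 CPM in fl EAE and 4270 to 5240 CPM in NestinCre EAE, with all 12 markers found in both. Summed markers of infiltrating phagocytes in the same nuclei were 16.6 to 63.5 CPM in fl EAE, with 7 of 10 markers found, and 73.6 to 373 CPM in NestinCre EAE, with 10 of 10; Ly6c2 and F10 were among those at 0 in fl EAE. When microglia with a UMI of any of these 10 markers were left out, Apoe was called (log2 difference 1.00, edgeR adjusted p = 0.00373). Axl then did not pass the filter. Without the filter Axl, Clec7a, Cst7 and Gpnmb were all called, with edgeR adjusted p between 2.08e-09 and 0.00632. The log2 differences were 1.78 for Axl and 3.78 for Clec7a. Cst7 and Gpnmb had 1 and 0 UMIs in all fl EAE microglia, so no fold is given. For the fits without these nuclei the share of all genes called is not given. Their calls can therefore not be set against a background and are no result about the 10 genes. At this depth a phagocyte nucleus can lack a UMI of every marker, so such nuclei need not all have been left out. The part of phagocyte nuclei in these differences was not tested.

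4 of the 11 microglia clusters, grouped after their make-up was seen, held 794 of 1072 NestinCre EAE microglia (74.1%), 41 of 570 fl EAE microglia (7.19%) and 5 naive nuclei. One of the 4, with 213 nuclei of which 210 were from NestinCre EAE, held 153 Clec7a UMIs (232 CPM), 21 Gpnmb UMIs (31.8 CPM), 25 Cst7 UMIs (37.8 CPM), 19 Lpl UMIs (28.8 CPM) and 88 Axl UMIs (133 CPM). Apoe was highest in another of them, of 140 nuclei, at 522 CPM, where Clec7a was 24.8 CPM and Gpnmb had no UMI. Trem2 lay between 101 and 200 CPM and Cd9 between 112 and 226 CPM over all 11 clusters. These clusters were formed without aligning the libraries, and the values describe clusters and carry no test.

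Few nuclei held several of the genes. At 1000 UMIs per nucleus, 3 or more of the 10 genes were found in 0% to 0.5% of fl EAE microglia and 0% to 4.55% of NestinCre EAE microglia, the highest being NestinCre EAE 3. The ranges overlapped. In the naive libraries the share was 1.3% and 1.95% in fl and 3.1% in NestinCre, above all fl EAE libraries. No gene was found in 59.5% to 71.9% of fl EAE and 39.5% to 61.3% of NestinCre EAE microglia. In granule cells, 3 or more were found in at most 0.034% of the nuclei of an EAE library.

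Between immunized and naive mice, 6 of the 10 genes passed the filter in the fit over all 11 libraries, and Cst7, Itgax, Spp1 and Gpnmb were not tested. With run in the model 0 of the 6 were called in fl EAE against fl naive (0% of 8704 genes called) or in NestinCre EAE against NestinCre naive (0.23% of 8704 genes called). At an unadjusted p under 0.05 edgeR counted 0 and 1 of the 6, the 1 being Lpl, and DESeq2 called 0, giving no adjusted p for Lpl and Clec7a in NestinCre mice. In that model the fl contrast is linked to naive mice through run 2, the run with both EAE and naive libraries, though libraries of all runs enter the fit, and the NestinCre contrast, whose naive library is in run 3, is linked through fl naive 2 and fl naive 3; the single NestinCre naive library was also assumed to vary like the other groups. In fl mice the log2 difference, EAE over naive, was -0.62 ± 0.364 for Apoe, -0.26 ± 0.399 for Trem2, -0.02 ± 0.839 for Axl, -0.59 ± 0.540 for Cd9 and -2.29 ± 1.36 for Clec7a (edgeR adjusted p between 0.845 and 1). Within run 2 alone, fl EAE 4 less fl naive 2 was -0.29 for Apoe, -0.31 for Trem2, 0.056 for Axl, -2.08 for Cd9 and -2.23 for Clec7a on the log2 CPM scale (prior count of 2, no test with 1 library each), so the Cd9 difference was over 1 log2 unit larger there than in the fit. In NestinCre mice the fitted difference was 0.38 ± 0.532 for Apoe, -0.15 ± 0.608 for Trem2, 2.33 ± 1.89 for Axl, -1.10 ± 0.785 for Cd9 and 1.07 ± 1.65 for Clec7a (edgeR adjusted p between 0.772 and 0.985). Without run in the model, Axl was called in NestinCre mice (3.62 ± 0.962, edgeR adjusted p = 0.026), where run 1 and run 2 libraries are set against a single run 3 library.

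The genotype difference was not shown to depend on immunization. For the interaction 0 of 6 genes were called by edgeR or DESeq2, which gave no adjusted p for Axl and Clec7a, beside 0% of 8704 genes by edgeR, and 2 of the 6 had an unadjusted p under 0.05. One was Apoe, whose genotype difference was larger in EAE than in naive mice by 1.00 ± 0.447 on the log2 scale (edgeR, unadjusted p = 0.0349, adjusted p = 0.691). The other was Lpl, which rested on few UMIs with several libraries at 0, so no fold is given. Between the naive genotypes 0 of 6 were called (0% of 8704 genes), and 1 of the 6, Lpl, had an unadjusted p under 0.05.

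Related genes were followed as lists in the same microglia test, where 4.64% of all genes were called higher and 1.72% lower, and a count near those shares is no result about a list. The list of interferon-responsive microglia genes had 8 of 12 members tested and all 8 rose, with a median log2 difference of 2.91 against -0.02 for all 7157 genes. 2 of the 8 passed the filter with no fl EAE library at its limit, so those had to be higher and add no support to the count or the median. The largest were Gbp2, a guanylate-binding protein (3.39, adjusted p = 1.64e-05), the chemokine Cxcl10 (3.27, adjusted p = 0.00119) and Ifit2 (3.18, adjusted p = 0.00021), all from edgeR. The genes that passed through NestinCre EAE alone are not named here, and the genes with the largest differences may be among them. For comparison the 10 genes followed here had 4 tested, 2 higher and a median of 0.59.

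Of 16 homeostatic microglia genes tested, 5 fell and none rose, and the other 11 did not pass, with a median log2 difference of -0.47, and 15 of the 16 estimates were below 0. Fcrls (-1.91, edgeR adjusted p = 3.55e-05), the matrix protein gene Sparc (-0.88, adjusted p = 0.0233) and the lectin gene Siglech (-0.72, adjusted p = 0.0154) had the largest differences among those called. The other 2 were the fractalkine receptor gene Cx3cr1 and the transcription factor gene Mef2c. 12 of the 16 are also the markers by which microglia clusters were named.

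Among 17 tested of 26 other disease-associated microglia genes, 4 rose and 1 fell, with a median of 0.38. Cd52, a surface glycoprotein gene, rose by 1.51 (edgeR adjusted p = 0.00861), the activation marker gene Cd83 by 1.25 (adjusted p = 0.021) and the growth factor gene Csf1 by 1.14 (adjusted p = 0.0399), and the cathepsin gene Ctsz was the fourth. Serpine2, a serine protease inhibitor gene, fell by 0.94 (adjusted p = 0.0267). In the list of lipid uptake, transport and storage, which holds partners of Apoe and Lpl, 3 of 14 tested genes rose and none fell: the scavenger receptor gene Cd36 (2.80, edgeR adjusted p = 0.00118), the sterol exporter gene Abcg1 (1.35, adjusted p = 0.0103) and the lysosomal cholesterol carrier gene Npc2 (0.96, adjusted p = 0.00698), with a median of 0.34.

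**Figure D3:**
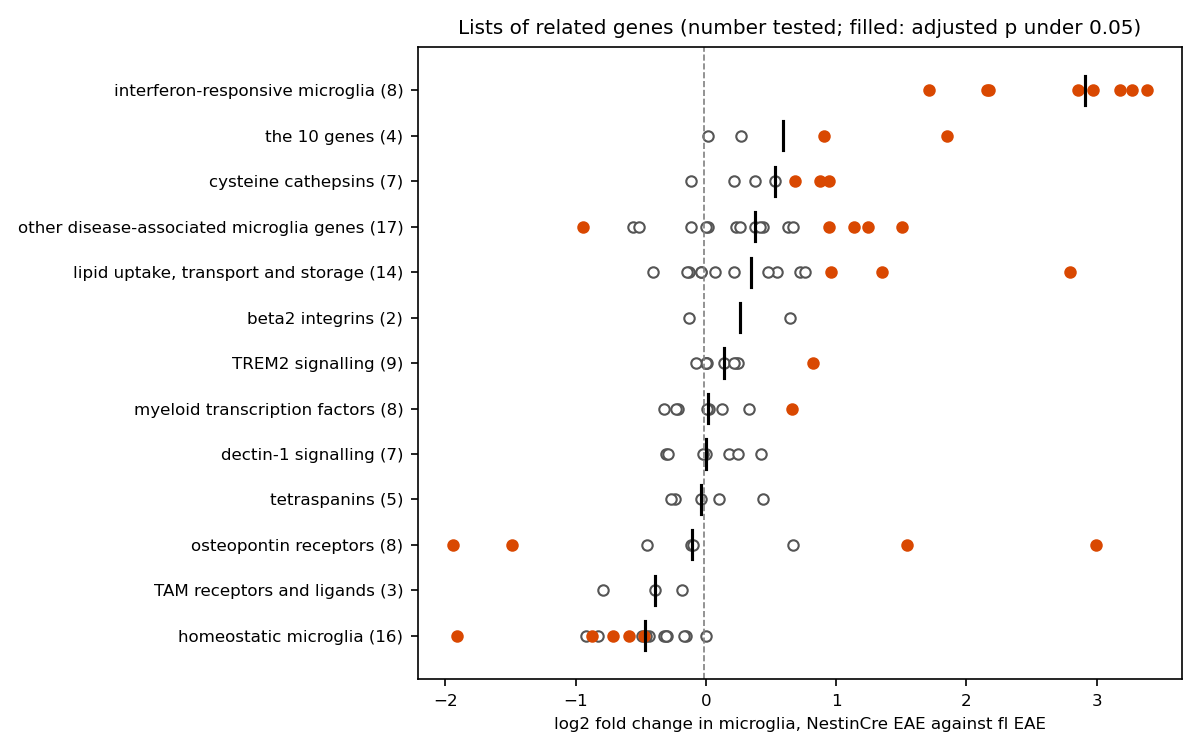
Log2 difference in microglia, NestinCre EAE against fl EAE (x axis), of each tested gene of the 10 and of 12 lists of related genes; the number tested is in brackets, filled points have an adjusted p under 0.05, black bars are list medians and the dashed line is the median of all genes. All 8 interferon-responsive genes lie at or above 1.71, 2 of them having passed the filter through NestinCre EAE alone, and 15 of 16 homeostatic genes lie below 0.

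Partners of the single genes were followed next. Of 9 tested TREM2 signalling genes only Ptpn6, a phosphatase gene, rose (0.82, edgeR adjusted p = 0.0494), and the adaptor gene Tyrobp stood at 0.23 (adjusted p = 0.663). The TAM receptor and ligand list, 3 tested beside Axl, had none called: Mertk, a receptor related to Axl, stood at -0.18 and the ligand genes Gas6 and Pros1 at -0.79 and -0.39 (edgeR adjusted p between 0.0509 and 0.612). Of the 8 osteopontin receptor genes 2 rose and 2 fell, Cd44 by 2.99 (edgeR adjusted p = 3.28e-05) and Itga4 by 1.54 (adjusted p = 0.0384) upwards, and Itga9 with -1.94 (adjusted p = 5.81e-05) and Itgb3 with -1.49 (adjusted p = 0.0397) downwards. 1 of the 8 passed the filter with no fl EAE library at its limit, so it had to be higher and adds no support to the count of genes that rose. Its name is not given here, so the adjusted p of Cd44 or Itga4 may be that of this gene. Itga4 is also on the list of phagocyte markers.

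Cysteine cathepsins, the class of protease that cystatin F inhibits, had 3 of 7 tested genes higher and none lower, Ctsz (0.95, edgeR adjusted p = 0.00806), Ctsc (0.87, adjusted p = 0.000938) and Ctss (0.68, adjusted p = 0.00646), with a median of 0.53. Of 8 tested myeloid transcription factor genes 1 rose, Irf8 (0.66, edgeR adjusted p = 0.0402). None was called among 7 dectin-1 signalling genes, 2 beta2 integrin genes, which include Itgb2, the partner chain of CD11c (0.65, edgeR adjusted p = 0.2), and 5 tetraspanin genes. Some genes stand on 2 lists, such as Ctsz, Tyrobp and Syk.

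Outside microglia the 10 genes had different main sites. Classes with at least 50 nuclei in EAE were ordered by their mean over EAE libraries, both genotypes together. Trem2 was highest in microglia at 122 ± 37.3 CPM (SD), followed by border-associated macrophages at 62.1 ± 59.0, whose spread overlaps it, and it was 2.09 ± 1.34 in granule cells. Apoe was highest in astrocytes at 1290 ± 305 CPM and border-associated macrophages at 1060 ± 286, which did not differ beyond their spread, then infiltrating phagocytes at 609 ± 536 and Bergmann glia at 602 ± 199, and microglia were lower at 241 ± 118. The mean in infiltrating phagocytes joins unlike groups, 0 to 401 CPM in fl EAE and 599 to 1545 CPM in NestinCre EAE. Axl was highest in border-associated macrophages at 109 ± 85.7 and infiltrating phagocytes at 87.4 ± 58.4 CPM, then fibroblasts and leptomeningeal cells at 62.6 ± 26.8, microglia at 51.3 ± 46.8 and astrocytes at 38.1 ± 10.5, each within the spread of the next. By genotype Axl was 16.6 to 28.5 CPM in fl EAE and 21.6 to 150 CPM in NestinCre EAE microglia, and 29.6 to 52.1 and 25.5 to 53.0 CPM in astrocytes, so in fl EAE microglia lay below astrocytes. Classes with fewer nuclei could hold as much: 42 endothelial nuclei had 823 ± 252 CPM of Apoe and 155 ± 238 of Cd9, and 42 mural nuclei had 171 ± 103 CPM of Axl, on 9 UMIs.

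Clec7a was highest in neutrophils at 331 ± 253 CPM and infiltrating phagocytes at 131 ± 73.8, followed by dendritic cells at 69.0 ± 112 and microglia at 41.1 ± 62.1, and the spreads of these classes overlap. By genotype Clec7a was 346 ± 355 CPM in fl EAE and 311 ± 42.6 in NestinCre EAE neutrophils, 95.8 ± 70.4 and 166 ± 66.9 in infiltrating phagocytes, and 4.13 ± 4.96 and 78.0 ± 73.0 in microglia. Its 8 UMIs in dendritic cells were all from NestinCre EAE. Itgax in dendritic cells had 11 UMIs, all from the 66 NestinCre EAE nuclei (63.2 ± 53.1 CPM), and none in 13 fl EAE nuclei, where the count of 0 allows up to 147 CPM (exact Poisson bound). In microglia Itgax was 2.47 ± 3.15 CPM in fl EAE and 15.7 ± 9.63 in NestinCre EAE. Cd9 was highest in newly formed oligodendrocytes at 504 ± 249 CPM and oligodendrocyte progenitor cells at 198 ± 38.7, before microglia at 124 ± 55.5 and mature oligodendrocytes at 102 ± 18.6. Gpnmb was 29.8 ± 53.5 CPM in border-associated macrophages, 28.6 ± 59.6 in infiltrating phagocytes and 4.36 ± 6.12 in microglia. All of its UMIs in these classes came from NestinCre EAE, 12, 17 and 22 in turn. The counts of 0 in fl EAE allow up to 33.1, 50.1 and 3.23 CPM (exact Poisson bounds). Spp1 was 69.1 ± 63.0 CPM in fibroblasts and leptomeningeal cells and 13.2 ± 8.46 in microglia. Cst7 stood at 16.7 ± 23.4 CPM in T or NK cells, on 6 UMIs that all came from NestinCre EAE, and at 7.72 ± 8.75 CPM in microglia. Lpl was 8.92 ± 8.63 CPM in microglia, 10.5 ± 17.2 in infiltrating phagocytes and 11.7 ± 19.3 in fibroblasts and leptomeningeal cells, on 31, 9 and 5 UMIs, which did not differ beyond their spread. Its 2 UMIs in T or NK cells came from the 3 such nuclei of fl EAE 2, the other 7 EAE libraries having none.

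Most UMIs of several genes came from nuclei other than microglia. Granule cells held 54.6% of the 21838 Apoe UMIs in fl EAE and 53.8% of the 19483 in NestinCre EAE, at a level of 124 ± 28.8 CPM, whereas microglia held 0.875% and 3.72%. Microglia held 44.4% of Trem2 UMIs in fl EAE and 44.5% in NestinCre EAE, 9.8% and 31.9% of Clec7a UMIs, 6.68% and 31.2% of Axl UMIs, and 0.633% and 15.4% of Cst7 UMIs. At 1000 UMIs per nucleus an Apoe UMI was found in 7.28% to 14.3% of fl EAE and 11% to 15.6% of NestinCre EAE granule cells, against 13.4% to 17.5% and 14.8% to 30.9% of microglia, so the ranges of the 2 classes overlap in both genotypes. No correction for RNA free in the suspension was made, and its part in these levels was not tested.

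**Figure D4:**
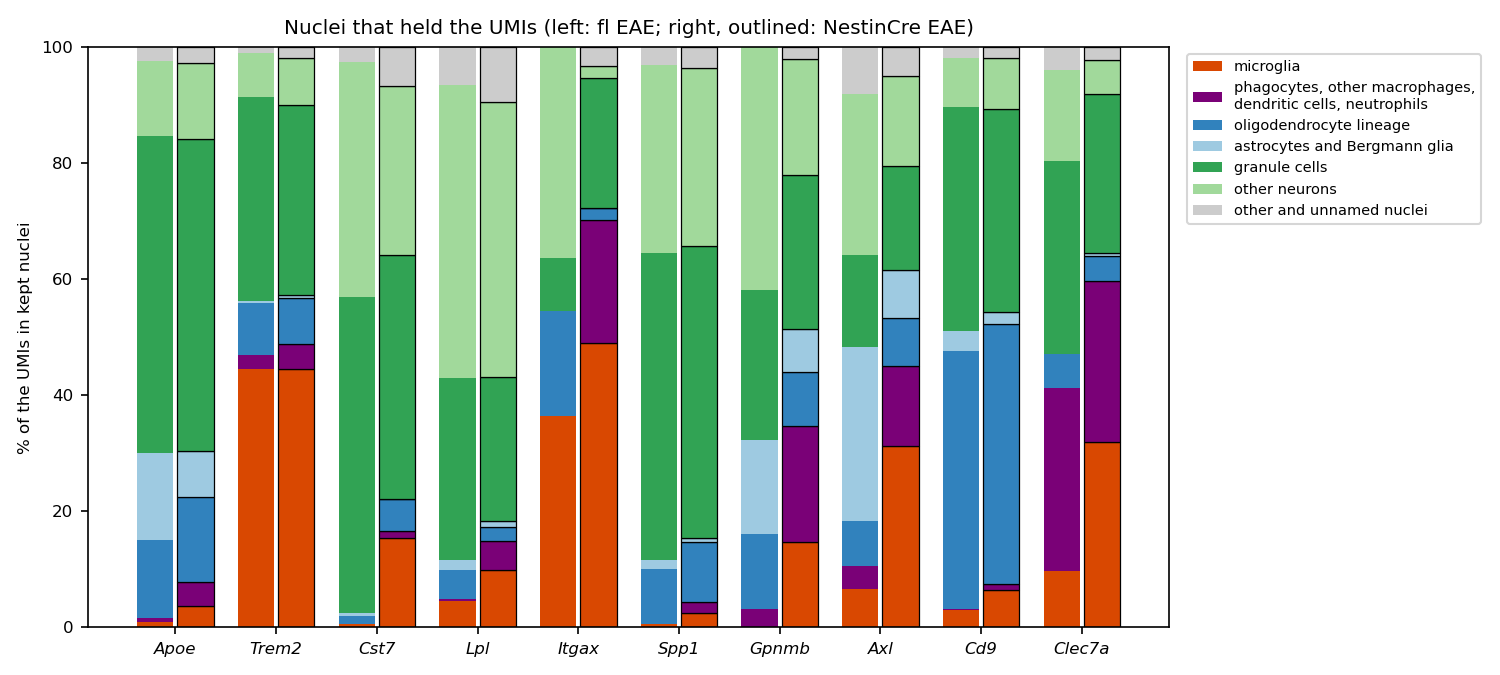
Share of each gene's UMIs in kept nuclei (y axis, percent) by the class of nuclei that held them, for fl EAE (left bar) and NestinCre EAE (right bar, outlined). The microglial share of Clec7a goes from 9.8% to 31.9% and that of Trem2 stays near 44%, while granule cells hold over 50% of Apoe in both.

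In infiltrating phagocytes the fl EAE libraries held 2 to 16 nuclei, so no test was made. Apoe there was 401, 0, 342 and 112 CPM in fl EAE, from 17 UMIs, and 632, 1545, 1243 and 599 CPM in NestinCre EAE, from 563 UMIs. The pooled ratio was 4.27 with a counting interval of 2.64 to 7.38. The 0 of fl EAE 2 came from 2 nuclei and allows up to 2080 CPM (exact Poisson bound), so the order of single libraries carries no information here. Clec7a had a pooled ratio of 1.13, with an interval of 0.588 to 2.45, and Axl 1.44, with an interval of 0.627 to 4.06, so neither interval excludes equal levels. Gpnmb, Spp1, Trem2 and Itgax had 17, 23, 20 and 8 UMIs in NestinCre EAE phagocytes and 0 in fl EAE, where the small number of nuclei allows no statement. Cst7 had 1 UMI in NestinCre EAE phagocytes, against 39 in microglia.

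In the 8 other classes with enough nuclei, 27 tests of the 10 genes were possible between NestinCre EAE and fl EAE, and 1 was called, Clec7a in granule cells. Of all genes tested, 1.28% of 15739 were called in granule cells, and 1.21% were called as higher. The share was 1.45% in mature oligodendrocytes, 0.826% in oligodendrocyte progenitor cells, 0.748% in astrocytes, 0.462% in border-associated macrophages, 0.246% in fibroblasts and leptomeningeal cells, 0.175% in other neurons and 0.103% in Bergmann glia. Apoe was tested in all 8 and ranged from -0.40 in border-associated macrophages to 0.08 in granule cells on the log2 scale (edgeR adjusted p between 0.725 and 0.999). In astrocytes the Apoe level was 1330 ± 337 CPM in fl EAE and 1250 ± 316 in NestinCre EAE (log2 difference -0.02 ± 0.155, edgeR adjusted p = 0.992). Cd9 was 88.4 ± 12.8 CPM in mature oligodendrocytes of fl EAE and 115 ± 13 in NestinCre EAE, a log2 difference of 0.38 ± 0.120 that did not pass (edgeR adjusted p = 0.255). Axl in astrocytes differed by 0.08 ± 0.323 (edgeR adjusted p = 0.989). The filter left several genes untested. In border-associated macrophages, where its limit was 306 CPM, Apoe alone passed, and Clec7a had 0 UMIs in fl EAE and 8 in NestinCre EAE. In mature oligodendrocytes Clec7a did not pass either. It was 0 to 0.298 CPM in fl EAE, from 3 UMIs, and 0.368 to 3.31 CPM in NestinCre EAE, from 26. Also untested there were Trem2, with 25 and 62 UMIs, and Lpl, with 11 and 4.

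Clec7a in granule cells was 0.0501, 0.0414, 0.556 and 0.0775 CPM in fl EAE, from 17 UMIs, and 3.33, 2.43, 1.80 and 0.556 CPM in NestinCre EAE, from 169 UMIs. The highest fl EAE and lowest NestinCre EAE libraries were nearly equal. The filter's limit of 0.447 CPM was reached by 1 fl EAE and 4 NestinCre EAE libraries. The log2 difference was 3.41 ± 0.583 (edgeR adjusted p = 0.0287), and the call was lost without fl EAE 1 (adjusted p = 0.11) or 2 (0.1) or without NestinCre EAE 1 (0.0743), 2 (0.0675) or 3 (0.0605), and with the replicate number as a block (0.111). In these same nuclei the summed markers of neutrophils were 6.72 to 10.4 CPM in fl EAE and 13.8 to 79.3 in NestinCre EAE, those of infiltrating phagocytes 27.1 to 41.2 and 30.2 to 151, and those of microglia 138 to 183 and 157 to 183, with all markers of each list found in both groups. Their part in the Clec7a difference was not tested. Trem2 (1.57 ± 0.431, edgeR adjusted p = 0.187) and Axl (1.22 ± 0.294, adjusted p = 0.116) in granule cells did not pass, though DESeq2 called both (adjusted p = 0.00419 and 0.0219). The share of all genes that DESeq2 called there is not given.

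Summed over all kept nuclei, 3 of the 10 genes were called, all as higher, beside 3.21% of 18011 genes, 3.16% as higher. Clec7a was 0.245, 0.0435, 0.5 and 0.163 CPM in fl EAE and 5.14, 2.97, 4.94 and 1.51 CPM in NestinCre EAE, without overlap, a log2 difference of 3.80 ± 0.471 (edgeR adjusted p = 0.00916). Itgax was 0.0245, 0.0653, 0.107 and 0.0148 CPM in fl EAE and 0.334, 0.359, 0.586 and 0.629 CPM in NestinCre EAE, also without overlap (3.11 ± 0.483, edgeR adjusted p = 0.0126). Itgax passed the filter on low counts only through NestinCre EAE, since 0 fl EAE and 4 NestinCre EAE libraries reached its limit of 0.227 CPM, so it could be tested only because it was high there and its call adds no support to the count; Clec7a reached the limit in 2 fl EAE and 4 NestinCre EAE libraries. Trem2 was 1.27, 0.98, 2.31 and 0.918 CPM in fl EAE and 3.98, 2.44, 4.74 and 5.21 CPM in NestinCre EAE, with fl EAE 3 just below NestinCre EAE 2 (1.57 ± 0.337, edgeR adjusted p = 0.0426).

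The Clec7a call held in every fit that left out 1 library (edgeR adjusted p between 0.00493 and 0.0429). The Itgax call was lost without NestinCre EAE 3 (adjusted p = 0.052) or fl EAE 1 (0.0568), and the Trem2 call without any of NestinCre EAE 1, 3 and 4 and fl EAE 1, 2 and 4 (edgeR adjusted p between 0.11 and 0.15). Gpnmb just missed the threshold (1.43 ± 0.320, edgeR adjusted p = 0.0506). Apoe, which had risen in microglia, differed by 0.02 ± 0.104 over all nuclei (edgeR adjusted p = 0.985), and its levels were 107, 116, 132 and 70.1 CPM in fl EAE and 94.3, 133, 122 and 83.6 CPM in NestinCre EAE. Trem2 had not passed in microglia (0.27, edgeR adjusted p = 0.645) and passed over all nuclei. NestinCre EAE held 1072 microglia and 350 infiltrating phagocytes, against 570 and 38 in fl EAE, and the part of these numbers in the differences over all nuclei was not tested.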

How the data were processed

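The deposited matrices hold raw UMI counts per gene and barcode, made by the authors with Cell Ranger, version 7.0.0 for run 1 and 6.0.2 for runs 2 and 3 per the file headers, on GRCm39, while the labels and the methods give 6.0.2 throughout; intronic reads were counted per the methods, the part of the version in differences between runs was not tested, and each run with EAE mice holds both genotypes; nuclei had been sorted on Hoechst without doublet exclusion. Barcodes were kept with at least 200 genes (run 1) or 500 genes (runs 2 and 3) and at most 5% mitochondrial UMIs, and 188089 passed. The limits on genes are those of the study's methods, 200 for the batch with 3 EAE mice of each genotype (run 1) and 500 for the batch with 1 of each (run 2), and 500 was also used for run 3. Scrublet (scanpy 1.11.5) scored doublets. In each library the nuclei with the highest scores were marked, a share fixed beforehand at 0.8% per 1000 barcodes. The marked nuclei were left out together with clusters of over 40% doublets.

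Nuclei were clustered in 3 rounds with the Leiden method (igraph 0.11.9). All but the last used 3000 variable genes and 40 components, aligned over libraries by a Harmony-type correction. The last round, which split microglia and other immune, vascular and meningeal nuclei again, used 2000 variable genes and 20 components without alignment over libraries. The rounds gave 117 clusters of at least 20 nuclei, which were named from marker lists where their markers allowed. Smaller clusters were left unnamed, and in all 1.76% of kept nuclei were unnamed. The 10 genes were kept out of the variable genes. Clustering settings were revised 2 times after the leading genes of clusters were seen, so the classes are a rebuilt naming and not the study's own. The genes and lists were chosen with earlier results of these data known.

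UMIs were summed per library and class. Classes with at least 10 nuclei in every EAE library were tested with edgeR 4.0.16 (TMM, filterByExpr, quasi-likelihood test, run in the model; R 4.3.3), adjusted over all genes by Benjamini-Hochberg at 0.05; fits against naive mice used all 11 libraries. Ratios of pooled counts carry exact 95% intervals, and a count of 0 was set to a floor of 3 UMIs over the group for a fold. Shares of nuclei were taken after thinning each nucleus to 1000 UMIs. On simulated counts for 6858 genes in microglia of the 8 EAE libraries, 67.7% of 93 genes changed 2-fold and 100% of 96 genes changed 4-fold were recovered, with 6 false calls. DESeq2 1.42.0 was the other test.

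All 10 genes are named, and from each list up to 3 called genes with the largest absolute difference in microglia. Tyrobp, Cx3cr1, Mef2c, Mertk, Gas6, Pros1, Itgb2, Itgb3 and, in its first list, Ctsz were named after their values were seen. Replicates 4 carry no number in the labels and were numbered here. Lpl promoter sequence was not used here, and the value of 1 phagocyte marker is not reported here.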

Additional observations from a re-analysis of the deposited data

Results flagged for a closer look

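In groups of 4 libraries the gap between the highest or lowest library and its neighbour was set against the group's range (Dixon's ratio at the 95% level) for the 10 genes in microglia, granule cells and all kept nuclei. 4 of 60 groups passed, and for continuous values chance alone passes about 1 group in 20. That rate does not apply to groups with a single UMI, whose ratio is fixed at 1.0, or with none, such as Gpnmb in fl EAE microglia. Cst7 in microglia of fl EAE had a ratio of 1.0, since replicate 3 held the single UMI. Itgax in granule cells of fl EAE likewise had a ratio of 1.0, from the single UMI in replicate 1. Clec7a in granule cells of fl EAE had a ratio of 0.93, replicate 3 standing above the others at 0.556 CPM. Spp1 in all kept nuclei of NestinCre EAE had a ratio of 0.95, with replicate 2 the highest.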

How the results depend on the processing

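In microglia, NestinCre EAE against fl EAE, 2 of the 10 genes were called, and 2 were called with other scaling factors, without run, in run 1 alone, with doublets kept and without nuclei over 6000 UMIs. The count was 1 with DESeq2 and 1 without nuclei holding a phagocyte marker UMI, where Axl did not pass the filter. It was 5 without the filter, and, in alternatives added after seeing the data, 5 without the filter and those nuclei, 5 in each unfiltered fit that left out 1 library, and 3 with DESeq2 and no filter. Leaving out 1 library gave 1 to 3: 1 without NestinCre EAE 1, 3 or 4, where Axl did not pass the filter, and 3 without any of the other 5, where Clec7a passed it through NestinCre EAE alone, 0 fl EAE libraries reaching its limit of 21.9 or 30.9 CPM, so that the third call followed from the filter; without fl EAE 3 this held for Axl as well. In EAE against naive the count was 0, and 1 without run in the model. In other classes it was 1, and 3 with DESeq2, 3 without the filter and 0 to 2 when 1 library was left out. In all kept nuclei it was 3, and 5 with DESeq2 and 1 to 5 when 1 library was left out, 1 without fl EAE 1 or NestinCre EAE 3 and 5 without NestinCre EAE 2. With at least 500 genes asked of nuclei in every library, also added after seeing the data, 7 microglia and 1178 kept nuclei were left out and the counts were 2 in microglia and 4 in all kept nuclei, where Gpnmb was called (edgeR adjusted p = 0.0494). Shares of all genes called are given above for the main fits and the unfiltered microglia fit. For the other settings no such share is given, so a change in their counts is no result about the 10 genes.

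In run 1 the deviations of same-numbered libraries correlated at -0.00439, 0.0132 and -0.0101 in microglia and -0.0617, 0.231 and 0.23 over all kept nuclei. Over all kept nuclei, fl EAE 2 with NestinCre EAE 3 gave -0.254, and fl EAE 3 with NestinCre EAE 2 gave -0.259. Replicate numbers thus gave no sign of pairing in microglia. Whether replicates 2 and 3 are paired over all kept nuclei was not tested. With the replicate number as a block the counts were 2 in microglia, 3 in all kept nuclei and 0 in other classes, where the Clec7a call in granule cells was lost; log2 differences that changed sign were -3.5e-05 for Apoe in mature oligodendrocytes, 0.032 for Spp1 in granule cells and 0.0086 for Spp1 in all kept nuclei.

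None of the differences that changed sign had been called. On the log2 scale in microglia, Cd9 became -0.043 with DESeq2, -0.62 in run 1 alone, -0.016 with doublets kept, -8.1e-06 without nuclei over 6000 UMIs, -0.0021 with at least 500 genes in every library and -0.082 with myeloid nuclei summed. Unfiltered Lpl became 0.44 without nuclei with a phagocyte marker, 0.50 without fl EAE 1 and 0.32 without NestinCre EAE 2. Without run in the model, Lpl became 0.28 and Axl 0.42 in fl EAE against naive. Apoe became -0.0096 without the filter in oligodendrocyte progenitor cells and -0.0045 over all deposited barcodes. The cause was not tested.

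Differences whose sign depended on a single library had these ranges over the fits that left 1 out. In microglia they were -0.011 to 0.44 for Trem2 and -0.65 to 0.25 for Cd9 between the genotypes, -0.26 to 0.36 for Axl and -2.18 to 0.53 for Cd9 in fl EAE against naive, and -2.62 to 1.15 for Clec7a in NestinCre EAE against naive. Apoe ranged from -0.11 to 0.16 in mature oligodendrocytes, -0.13 to 0.12 in oligodendrocyte progenitor cells, -0.12 to 0.14 in astrocytes, -0.092 to 0.21 in granule cells, -0.082 to 0.053 in other neurons and -0.042 to 0.11 in all kept nuclei. Axl ranged from -0.21 to 0.26 in astrocytes and -0.32 to 0.030 in other neurons. Spp1 ranged from -0.11 to 0.37 in mature oligodendrocytes, -0.38 to 0.25 in granule cells and -0.28 to 0.15 in all kept nuclei. Cd9 ranged from -0.38 to 0.58 in granule cells, -0.40 to 0.60 in other neurons and -0.062 to 0.59 in all kept nuclei, and Lpl from -0.20 to 0.086 in all kept nuclei.

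EAE against naive could not be estimated without fl naive 2, nor in NestinCre mice without fl naive 3 or NestinCre naive 2. Cst7, Lpl, Itgax, Spp1 and Gpnmb rest on 52 UMIs or fewer in EAE microglia, so only large differences in them were detectable.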
